A study of Mus musculus with 14 samples.

Results

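The 8 genes Chat, Slc18a3, Slc5a7, Lhx8, Sst, Npy, Nos1 and Pvalb are markers of cholinergic and GABA interneurons, and all 8 were found by symbol among the 23337 genes of each count table. They were taken as a list of named marker genes, drawn up with earlier results of these data known, and no threshold on the values was used. RNA-seq was made from microdissected striatum and cerebellum of mice on a C57Bl/6 background at 6 months of age. The striatal libraries came from 3 Thap1 conditional knockout (cKO) and 3 wildtype (WT) samples, and the cerebellar libraries from 4 cKO and 4 WT samples. The WT samples were from littermates and no treatment is named for any group. The sources used here give neither the Cre driver, the cells it acts in nor the deleted part of Thap1. They do not say whether the replicates are separate animals, so the p-values describe the spread of these samples, which may be technical.

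In the striatum, interneurons are a minority among GABA projection neurons. Cholinergic interneurons make acetylcholine with choline acetyltransferase (Chat), load it into vesicles with the vesicular acetylcholine transporter (Slc18a3) and take up choline with the high-affinity choline transporter (Slc5a7), and the LIM homeodomain factor Lhx8 directs the development of forebrain cholinergic neurons. A class of GABA interneurons contains the peptides somatostatin (Sst) and neuropeptide Y (Npy) together with neuronal nitric oxide synthase (Nos1), and fast-spiking GABA interneurons contain the calcium-binding protein parvalbumin (Pvalb). In the cerebellum, Nos1 is known from granule cells and molecular layer interneurons, and Pvalb from Purkinje cells and molecular layer interneurons. THAP1, the factor mutated in the inherited dystonia DYT6, binds DNA through a zinc-coordinating domain.

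The upstream sequences of the peptide genes Npy and Sst are shown, Npy because it was lower in cKO cerebellum and Sst because of its motif matches. Sst was the only member with a match to either motif in the RefSeq windows searched. For Nos1 that window is not where the annotated transcripts start. The sequences shown are RefSeq sequences on GRCm38.p6, 5′ to 3′ on the strand of the gene. Npy is on the plus strand of chromosome 6, and the 250 bases before its start (chr6:49822460-49822709) are given. Sst is on the minus strand of chromosome 16, and the 136 of its 250 upstream bases that lie outside an annotated exon (chr16:23890959-23891094) are given. Capitals mark a match to the THAP1 motif TNNGGCA.
Npy: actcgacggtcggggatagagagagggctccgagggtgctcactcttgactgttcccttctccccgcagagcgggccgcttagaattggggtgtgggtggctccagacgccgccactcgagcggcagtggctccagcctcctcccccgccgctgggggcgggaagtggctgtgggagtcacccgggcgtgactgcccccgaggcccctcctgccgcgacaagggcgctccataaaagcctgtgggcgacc
Sst: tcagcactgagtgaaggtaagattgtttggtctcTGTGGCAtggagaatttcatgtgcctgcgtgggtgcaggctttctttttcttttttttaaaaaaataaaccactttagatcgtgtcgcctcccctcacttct

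RefSeq windows of 300 bases, from 250 before to 50 after a start, were found for all 8 genes, 9 windows in all since Pvalb has 2. Both strands were searched for TNNGGCA, which 13124 of 32851 such windows held (40.0%), and for the cyclic AMP response element TGACGTCA, which 588 held (1.79%). The Sst window held TNNGGCA at position -216 from the start and, on the opposite strand, at position 37, and TGACGTCA at position -48, with no overlap between them. The other 8 windows held neither set of letters. The Npy window was 68.0% G and C with 24 CG pairs and the Sst window 50.3% with 13, against medians of 52.7% and 7 over all windows. For Nos1 the RefSeq window ends in an exon inside the gene, 85807 bases from the outermost annotated start. Of 7 annotated Nos1 transcripts, 4 have an exon from that base and 0 begin there, so this window does not describe where the annotated transcripts start and its sequence is not shown.

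The libraries held 12659013 to 14258141 counts in cKO striatum, 12595941 to 13499875 in WT striatum, 19860775 to 28099205 in cKO cerebellum and 19458954 to 24331760 in WT cerebellum. Levels are CPM, counts scaled to library size, on 1 scale for all 14 libraries, and levels between genes are compared per kilobase of exon (RPKM). Thap1 averaged 5.89 ± 2.07 CPM in cKO and 15.1 ± 1.20 CPM in WT striatum (SD, n = 3 each; 38.9% of WT), with no overlap, and did not pass the threshold of an adjusted p under 0.05 (edgeR's quasi-likelihood test, adjusted p = 0.0562). It passed there without WT replicate 1 (log2 fold change -1.41, edgeR adjusted p = 0.0248), with DESeq2 (adjusted p = 2.91e-05) and with limma-voom (0.00244). It averaged 7.02 ± 0.360 CPM in cKO and 8.95 ± 1.21 CPM in WT cerebellum (SD, n = 4 each; 78.4% of WT), and passed narrowly (edgeR adjusted p = 0.0488). That call was lost in 11 of 16 alternatives, among them DESeq2 (adjusted p = 0.0569) and leaving out 1 of the 4 cKO libraries (0.0659 to 0.138) or WT replicate 1 (0.127) or 3 (0.170). The dissections matched their labels: summed markers of striatal projection neurons reached 7405 to 9163 CPM in striatum and 233 to 301 CPM in cerebellum, those of granule cells 247 to 410 CPM in striatum and 4778 to 5780 CPM in cerebellum, and the granule cell gene Gabra6 and the Purkinje cell gene Pcp2 had 0 counts in every striatal library. Striatal WT replicate 1 stood apart, with 28.3 and 27.8 for the chi-square statistic per degree of freedom against the other WT libraries, which differed from each other by 6.74, and with the lowest level of the projection neuron peptide genes Penk (1171 CPM, at least 1802 CPM in the other striatal libraries) and Tac1 (202 CPM, at least 323 CPM in the others). That library was not low in the summed projection neuron markers, at 9070 CPM against 8694 and 8766 CPM in the other WT libraries. Pde10a (2775 ± 615 CPM) and Ppp1r1b (2289 ± 654 CPM) weighed most in the WT sums and varied among these libraries (SD, n = 3). The sum can thus hide differences of single genes. Striatal results that rest on WT replicate 1 are also given without it. A change in a bulk sample can be fewer cells of a type or less RNA per cell, and these cannot be told apart here.

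In short, Nos1 and Npy fell in cKO cerebellum, and no interneuron gene was called in cKO striatum. In striatum all 8 genes were tested and 0 were called, where 0.384% of 14080 genes were. DESeq2 and limma-voom also called 0 of the 8. At an unadjusted p under 0.05, edgeR took 2 of the 8, Lhx8 and Sst, beside 7.24% of all genes, and the CPM ranges of the same 2 did not overlap between genotypes, beside 15.1% of all genes. With 3 against 3 samples, the smallest p an exact two-sided permutation test can give is 0.1. The median log2 fold change was 0.01 over the 8 genes and 0.00 over all genes tested. In cerebellum 4 of the 8 had enough counts to be tested (Sst, Npy, Nos1 and Pvalb). Of these, 2 were called, both lower, where 7.59% of 14775 genes were called and 4.96% were called lower. The falls of Nos1 and Npy were known before the list was made, so their count is not independent of it.

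**Figure D1:**
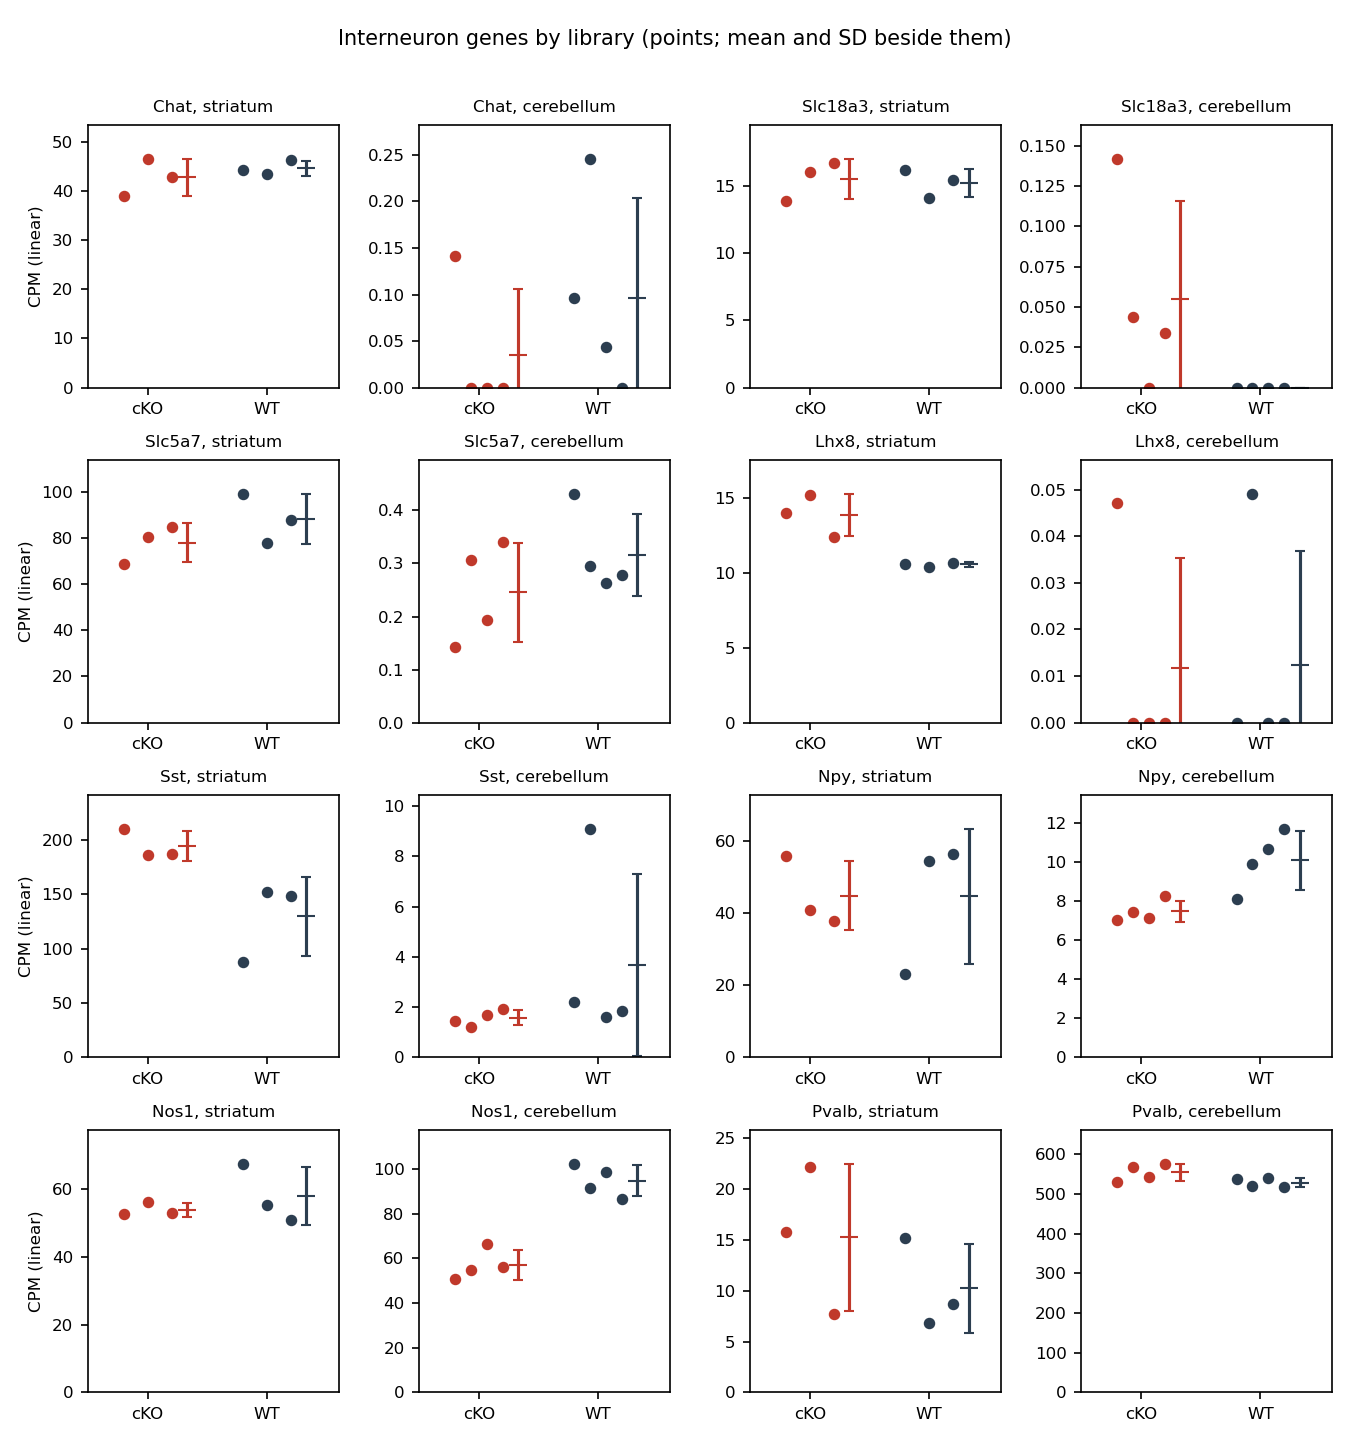
CPM (linear axes from 0) of the 8 genes in each library of striatum (3 cKO and 3 WT) and cerebellum (4 cKO and 4 WT); points are libraries and bars are mean and SD, cut off at 0. Nos1 in cerebellum lies between 51.0 and 66.4 CPM in cKO and between 86.5 and 102 CPM in WT, and the 4 cholinergic genes are near 0 there in both genotypes.

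The genes of acetylcholine synthesis and transport did not differ between genotypes in striatum beyond the spread of the libraries. Chat (ENSMUSG00000021919.8; mm10, chromosome 14, 32408203 to 32465989, minus strand, 4703 exon bases) stood at 39.0, 46.6 and 42.8 CPM in cKO, against 44.3, 43.5 and 46.4 CPM in WT. The cKO libraries spanned the WT ones, and the log2 fold change was -0.07 (95% interval -0.30 to 0.16; edgeR adjusted p = 0.863), and -0.07 without WT replicate 1. Slc18a3 (chromosome 14, 32462438 to 32464850, minus strand) is 1 exon inside Chat on the same strand, shares 0 exon bases with it, and has its RefSeq start 1059 bases from that of Chat. It stood at 13.9, 16.0 and 16.7 CPM in cKO, against 16.2, 14.1 and 15.5 CPM in WT. These ranges overlapped as well, with a log2 fold change of 0.02 (-0.28 to 0.32; edgeR adjusted p = 0.968), and 0.07 without WT replicate 1.

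Slc5a7 (chromosome 17, 54273590 to 54299034, minus strand), the choline transporter, stood at 68.8, 80.5 and 85.0 CPM in cKO striatum, against 99.2, 77.7 and 87.8 CPM in WT striatum. Its log2 fold change was -0.18 (-0.46 to 0.09; edgeR adjusted p = 0.778), and -0.08 without WT replicate 1, its highest library. The intervals of these 3 genes exclude a doubling or halving on the log2 scale, and a p above the threshold does not show that the genotypes are alike.

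Lhx8 (chromosome 3, 154306294 to 154330659, minus strand), the developmental factor of these neurons, stood at 13.98, 15.2 and 12.4 CPM in cKO striatum, against 10.6, 10.4 and 10.7 CPM in WT striatum. All 3 cKO libraries were above all 3 WT libraries. The log2 fold change was 0.39 (SE 0.135; 0.08 to 0.69; unadjusted p = 0.0188, edgeR adjusted p = 0.542), so it was not called. It was 0.40 without WT replicate 1 (edgeR adjusted p = 0.372).

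In cerebellum the 4 cholinergic genes were below the count filter in both genotypes. Over the 4 libraries of a group, Chat had 3 counts in cKO and 8 in WT, and Slc18a3 had 5 in cKO and 0 in WT. Slc5a7 had 25 counts in cKO and 28 in WT, and Lhx8 had 1 in each. None of these differences was detectable at this depth (exact two-sided permutation tests of CPM, 4 tests, unadjusted p = 0.543, 0.143, 0.314 and 1.00 for Chat, Slc18a3, Slc5a7 and Lhx8).

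Of the peptide genes, Sst was higher in each cKO striatal library than in any WT one without passing the test. Sst (chromosome 16, 23889573 to 23890958, minus strand), an inhibitory peptide, stood at 210, 186 and 187 CPM in cKO, against 87.8, 152 and 149 CPM in WT. The lowest WT library was replicate 1, and the other WT libraries were nearer to the cKO ones. The log2 fold change was 0.58 (SE 0.184; 0.16 to 1.00; unadjusted p = 0.0118, edgeR adjusted p = 0.461). Without WT replicate 1 it was 0.37 with an edgeR adjusted p of 0.0522, so it was again not called. It had the same direction with each other library left out, with adjusted p from 0.367 to 0.929.

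Npy (chromosome 6, 49822710 to 49829507, plus strand) is made by the same class of striatal neurons as Sst. It stood at 55.8, 40.9 and 37.9 CPM in cKO striatum, against 23.1, 54.6 and 56.5 CPM in WT striatum. As for Sst, WT replicate 1 was the lowest library and replicate 1 the highest of cKO. The log2 fold change was 0.00 (-0.67 to 0.67; edgeR adjusted p = 1.00), and -0.30 without WT replicate 1 (0.684). The interval holds the log2 fold change of Sst, and the difference between these genes was not tested.

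In cerebellum Npy fell. It stood at 7.04, 7.45, 7.15 and 8.25 CPM in cKO, against 8.10, 9.87, 10.6 and 11.7 CPM in WT. The ranges overlapped by 1 library on each side, since the highest cKO library (8.25 CPM) was above the lowest WT library (8.10 CPM). The means were 7.47 ± 0.550 CPM in cKO and 10.1 ± 1.51 CPM in WT (SD, n = 4 each; 74.2% of WT), a log2 fold change of -0.42 (SE 0.105; -0.64 to -0.20; edgeR adjusted p = 0.0201). The exact two-sided permutation test gave p = 0.0571. The call was lost when any of 5 of the 8 libraries was left out: WT replicate 3 (edgeR adjusted p = 0.0683) or 4 (0.0718), or cKO replicate 1 (0.0649), 2 (0.0550) or 3 (0.0554). It was also lost with all 14 samples in 1 model (0.569), where the spread was shared with striatum.

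Sst was low in cerebellum, at 1.46, 1.23, 1.70 and 1.91 CPM in cKO and 2.20, 9.09, 1.62 and 1.83 CPM in WT. WT replicate 2 was far above the other 7 libraries, which overlapped. The log2 fold change was -1.17 (SE 0.679; -2.82 to 0.47; edgeR adjusted p = 0.377), and -0.23 without WT replicate 2 (0.559). That library also had the highest levels of the excitatory neuron gene Slc17a6 (44.7 CPM, 20.7 to 32.1 CPM in the other cerebellar libraries) and of the tachykinin gene Tac1 (4.18 CPM, 0.199 to 1.09 CPM in the others). The summed brainstem and deep nuclear neuron markers, 7 genes, ran from 26.7 to 37.8 CPM in cKO and from 23.0 to 49.1 CPM in WT, with the highest value in that library. Slc17a6 is among these genes and made up most of that value, so the sum largely repeats it. Glra1, another of them, stood at 2.51 CPM in that library and at 4.29 CPM in cKO replicate 3. The part of these neurons in the Sst value was not tested.

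**Figure D2:**
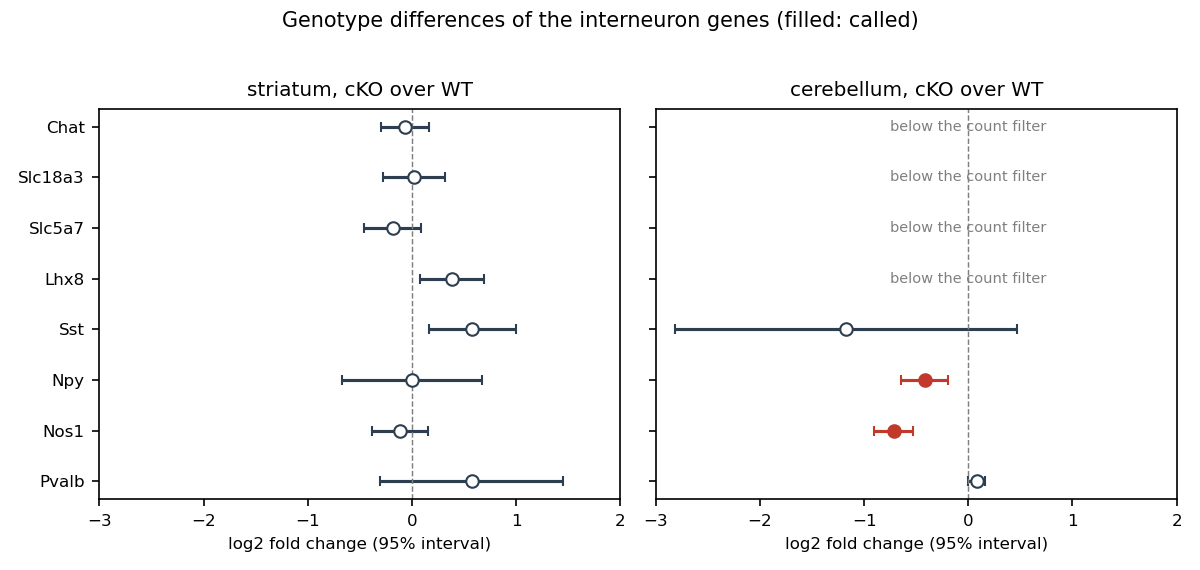
Log2 fold changes of cKO over WT with 95% intervals from edgeR for the 8 genes in striatum and cerebellum; filled points are called at an adjusted p under 0.05. Nos1 (-0.72) and Npy (-0.42) in cerebellum are filled, and 4 genes were below the count filter in cerebellum.

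Nos1 had the clearest difference among the 8 genes. Nos1 (ENSMUSG00000029361.18; chromosome 5, 117781032 to 117958840, plus strand, 33 exon blocks) makes nitric oxide from arginine. In cerebellum it stood at 51.0, 54.6, 66.4 and 56.1 CPM in cKO, against 102, 91.6, 98.5 and 86.5 CPM in WT. Every cKO library was below every WT library. Ranges that did not overlap, in either direction, were found for 14.2% of all genes tested and for 1 of the 4 members tested. The means were 57.0 ± 6.61 CPM in cKO and 94.7 ± 7.04 CPM in WT (SD, n = 4 each; 60.2% of WT), a log2 fold change of -0.72 (SE 0.0816; -0.90 to -0.53; edgeR adjusted p = 0.00062). The exact two-sided permutation test gave p = 0.0286, the smallest that 4 against 4 samples allow. With any 1 library left out the log2 fold change lay between -0.80 and -0.67, and the call held each time. The raw counts were 1079 to 1718 in cKO and 1864 to 2250 in WT. Gm26995, an antisense gene that is not in the count tables, overlaps 268 of the 11151 exon bases of Nos1. Without a stated strand setting a part of the Nos1 counts could come from Gm26995, which was not tested.

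In striatum Nos1 stood at 52.6, 56.1 and 52.9 CPM in cKO, against 67.5, 55.4 and 50.9 CPM in WT. The ranges overlapped, with a log2 fold change of -0.11 (-0.38 to 0.16; edgeR adjusted p = 0.825), and 0.02 without WT replicate 1, its highest library. The difference of the tissues' genotype effects, cerebellum minus striatum, was -0.62 on the log2 scale (SE 0.141; -0.92 to -0.33; unadjusted p = 0.00043). At an edgeR adjusted p of 0.0717 it did not pass. It passed with DESeq2 (-0.61, adjusted p = 0.0153), with limma-voom (-0.73, adjusted p = 0.0193), and in edgeR without striatal WT replicate 1 (-0.74, adjusted p = 0.00955) or cerebellar cKO replicate 3 (-0.71, adjusted p = 0.0472). Of the 8 genes, 0 passed this test in edgeR, where 0.39% of 15401 genes did. The cholinergic genes entered it through their striatal counts, with at most 28 counts over a cerebellar group, so it could show little for them. At an unadjusted p under 0.05 there were 3 of the 8 (Nos1, Sst and Slc18a3), beside 11.6% of all genes. For Slc18a3 this rests on 5 counts in cKO and 0 in WT cerebellum, and for Sst the difference was -1.74, and -0.81 without cerebellar WT replicate 2. For Npy the difference of the effects was -0.44 (edgeR adjusted p = 0.672), and -0.12 without striatal WT replicate 1, so its fall in cerebellum was not shown to differ from striatum.

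Pvalb (chromosome 15, 78191114 to 78206400, minus strand), which buffers calcium in fast-spiking cells, was the most abundant of the 8 in cerebellum and differed little there. It stood at 530, 569, 544 and 576 CPM in cKO cerebellum, against 538, 520, 540 and 518 CPM in WT cerebellum. The ranges overlapped, with a log2 fold change of 0.08 (SE 0.0402; -0.01 to 0.16; edgeR adjusted p = 0.262). In striatum it was scarce and varied within both groups, at 15.8, 22.2 and 7.75 CPM in cKO, against 15.2, 6.81 and 8.72 CPM in WT. The log2 fold change there was 0.57 (-0.30 to 1.45; edgeR adjusted p = 0.778), and it depended on single libraries, at 0.98 with WT replicate 1 left out, 0.35 with WT replicate 2, 0.20 with cKO replicate 2 and 0.89 with cKO replicate 3.

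Markers of several cerebellar cell types were called, in both directions. Over all genes tested in cerebellum, 7.59% were called and 14.2% had ranges that did not overlap. Of 6 granule cell markers, 2 fell, the atypical cadherin gene Fat2 (log2 fold change -0.27) and the extracellular matrix gene Reln (-0.21), and their summed level was 4778 to 5104 CPM in cKO and 5025 to 5780 CPM in WT, which overlapped. Of 6 molecular layer interneuron markers, 1 fell, the cadherin gene Cdh22 (-0.27), and their sum was 248 to 267 CPM in cKO and 273 to 290 CPM in WT, with no overlap. Of 6 Purkinje cell markers, 1 rose, the inositol trisphosphate receptor gene Itpr1 (0.15), and their sum was 8895 to 9607 CPM in cKO and 8250 to 8732 CPM in WT, with no overlap. Itpr1 and Car8, at means of 5162 and 2545 CPM in WT, made up most of that sum. Of 3 Golgi cell markers, 1 rose, Lgi2 (0.22), with sums of 79.6 to 83.0 CPM in cKO and 69.3 to 81.8 CPM in WT. Of 3 Bergmann glia markers, Gdf10 rose (0.26) and the glutamate transporter gene Slc1a3 fell (-0.20), with sums of 1814 to 2065 CPM in cKO and 2036 to 2100 CPM in WT. Slc1a3, at a mean of 1722 CPM in WT, made up most of that sum. Hopx, the other marker, was higher in cKO but not called (0.30, edgeR adjusted p = 0.199). All calls named here are at an edgeR adjusted p under 0.05. That of Lgi2 was lost without WT replicate 1 or 3 or cKO replicate 1, 2 or 4 (edgeR adjusted p = 0.0761 to 0.106), and that of Itpr1 without cKO replicate 2 (0.0544). Of markers that were not called, the brainstem and deep nuclear gene Glra1 had a log2 fold change of 0.93 (edgeR adjusted p = 0.148) and the unipolar brush cell gene Lmx1a of 0.75 (0.225), both at low levels. The part of these cell types in the Nos1 and Npy values was not tested.

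Markers of myelinating cells were lower in both tissues. Of 6 mature oligodendrocyte markers, 5 fell in cerebellum, led by Mal (-0.37), Cldn11 (-0.30), Mog (-0.29) and Mbp (-0.18), and 2 fell in striatum, Mal (-1.08) and Cldn11 (-0.90). Over all genes tested, 4.96% were called lower in cerebellum and 0.384% were called in either direction in striatum. In striatum the Mal call was lost without cKO replicate 1 (edgeR adjusted p = 0.108) or 3 (0.0874), and the Cldn11 call without WT replicate 3 (0.113) or cKO replicate 1 (0.240) or 3 (0.228). In cerebellum the Mbp call was lost without any 1 of 6 libraries, WT replicates 2, 3 and 4 and cKO replicates 1, 2 and 4 (0.0519 to 0.117). Their sum in striatum was 4346 to 5386 CPM in cKO and 6754 to 8187 CPM in WT. In striatum the markers of cortical neurons summed to 6.41 to 25.2 CPM in cKO and 4.07 to 12.6 CPM in WT, and those of pallidal and basal forebrain neurons to 21.2 to 25.2 CPM in cKO and 16.3 to 24.1 CPM in WT. Choroid plexus markers summed to 199.8, 50.2 and 185 CPM in cKO striatum and to 53.9, 36.5 and 48.4 CPM in WT striatum, and the choroid plexus gene Ttr had a log2 fold change of 3.41 (unadjusted p = 0.0201, edgeR adjusted p = 0.557). The part of these cells in the striatal Sst and Lhx8 values was not tested. In the lists of striatal projection, cortical, pallidal, hypothalamic, brainstem and unipolar brush neurons, choroid plexus and microglia, 0 genes were called in either tissue. In that order, 7, 2, 4, 1, 2, 0, 4 and 5 genes were tested in striatum. In cerebellum 5, 4, 2, 2, 3, 2, 5 and 5 were tested, so several of these lists could show little. Choroid plexus markers varied widely in cerebellum, with sums of 704 to 3433 CPM in cKO and 30.6 to 2105 CPM in WT.

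**Figure D3:**
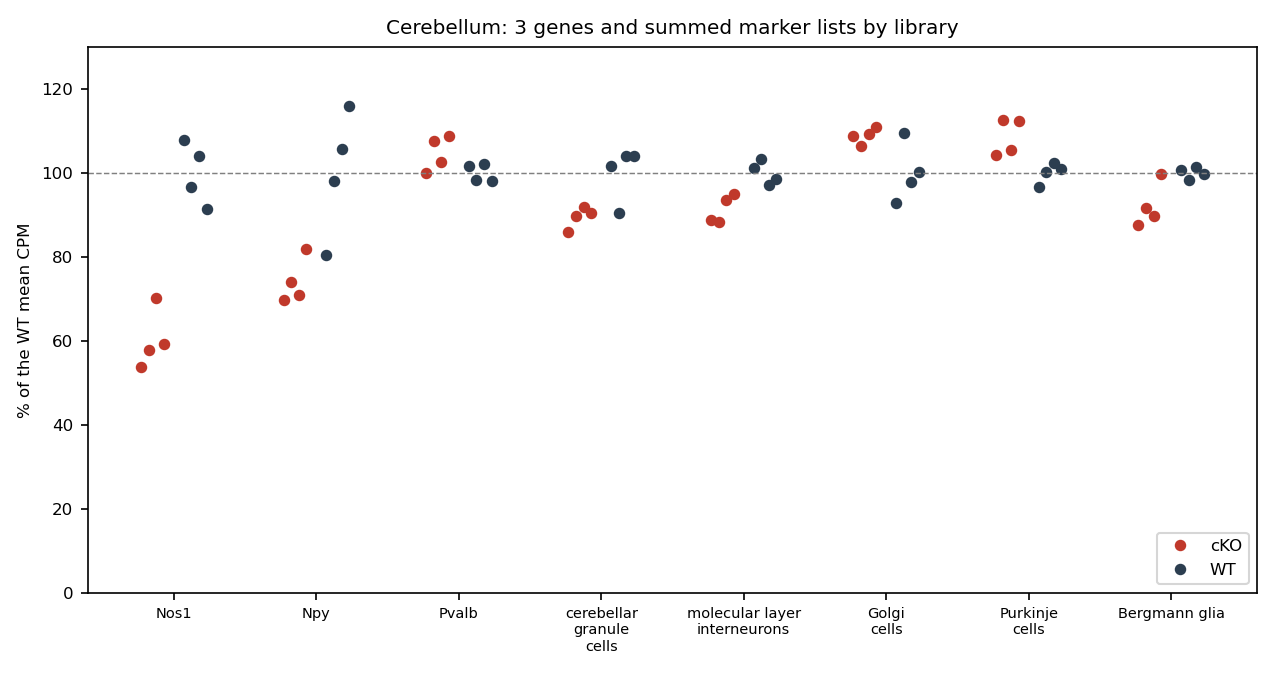
Nos1, Npy, Pvalb and the summed markers of 5 cell types in each cerebellar library, as a percentage of the WT mean (linear axis from 0; red cKO, dark blue WT, 4 libraries each). The Nos1 points of cKO lie apart from and below those of WT, with a mean at 60.2% of WT. The cKO points of each summed list lie above 80% of WT. Each sum is weighted toward its most abundant genes, and the part of these cell types in Nos1 was not tested.

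Genes of the surrounding pathways were called in cerebellum only. In striatum 0 genes were called in any of 8 pathway lists, beside 0.384% of all genes tested. These lists held 7 to 14 tested genes each in striatum. In cerebellum, where 7.59% of all genes were called, each list had 0 to 3 called genes. Of 6 tested genes of acetylcholine handling, 1 fell, the choline transporter-like gene Slc44a1 (log2 fold change -0.16; 77.9 ± 2.80 CPM in cKO and 87.9 ± 4.07 CPM in WT; SD, n = 4 each). The call was lost without WT replicate 3 (edgeR adjusted p = 0.0686) or cKO replicate 1 (0.0509) or 2 (0.0788). In striatum Slc44a1 had a log2 fold change of -0.60 and was not called (edgeR adjusted p = 0.188). Of 9 tested acetylcholine receptor genes 0 were called in cerebellum, with 1 at an unadjusted p under 0.05.

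Of 5 tested NPY and somatostatin receptor genes, 1 fell in cerebellum, the somatostatin receptor gene Sstr3 (-0.33; 14.2 ± 1.29 CPM in cKO and 18.0 ± 1.96 CPM in WT; SD, n = 4 each). The call was lost without WT replicate 1, 2 or 4 or cKO replicate 1 or 2 (edgeR adjusted p = 0.0538 to 0.0941). Of 13 genes of nitric oxide and cyclic GMP signalling, 1 fell, Dlg4 (-0.15; 336 ± 4.64 CPM in cKO and 376 ± 9.53 CPM in WT), which encodes the postsynaptic scaffold that binds neuronal nitric oxide synthase. The median log2 fold change of that list was 0.00, as over all genes. Of 12 genes of peptide processing and dense-core granules, 3 rose, the prohormone convertase gene Pcsk2 (0.18), the carboxypeptidase gene Cpe (0.17) and the granule exocytosis gene Cadps (0.13), and 0 fell. The Cadps call was lost without WT replicate 1, 3 or 4 or cKO replicate 1, 2 or 4 (edgeR adjusted p = 0.0512 to 0.125). Of 7 tested interneuron transcription factor and receptor genes and 8 other interneuron peptide and marker genes, 0 were called in cerebellum, with 0 and 3 at an unadjusted p under 0.05.

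**Figure D4:**
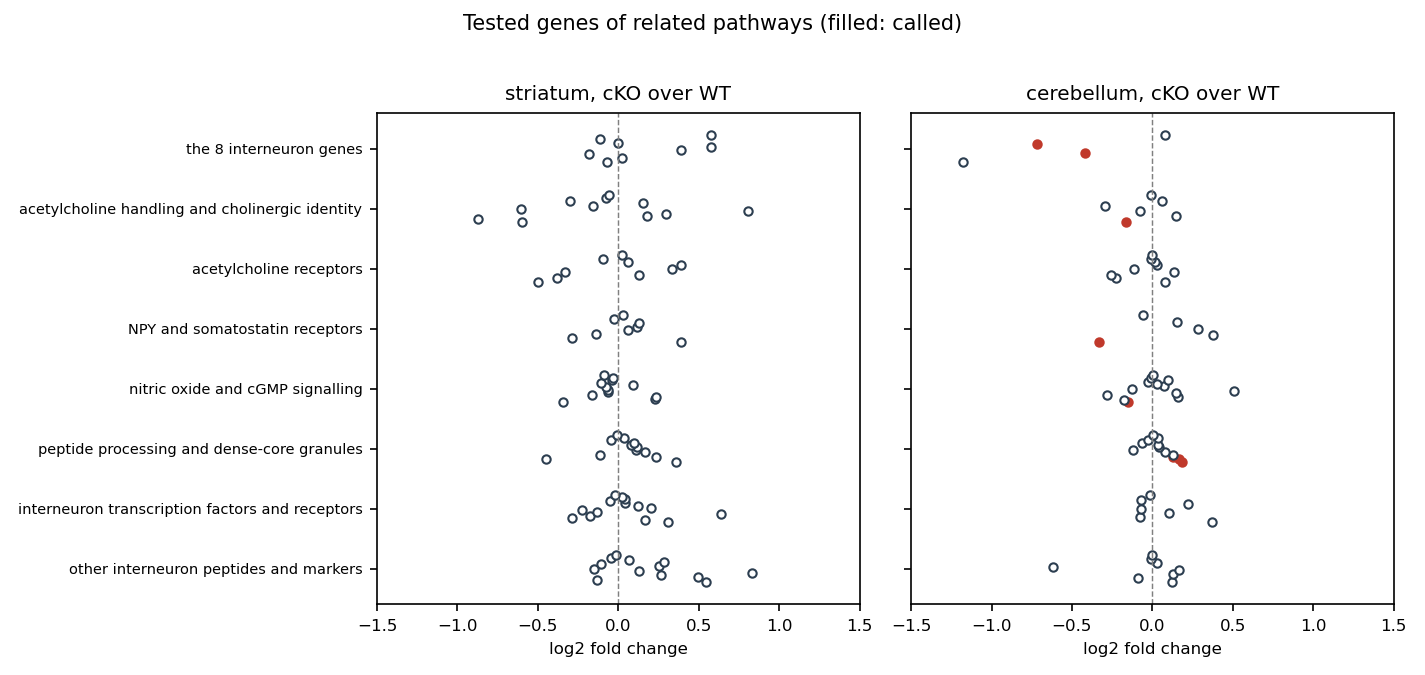
Log2 fold changes of cKO over WT of the tested genes of 7 pathway lists and of the 8 interneuron genes, in striatum and cerebellum; each point is a gene and filled points are called at an edgeR adjusted p under 0.05. No point is filled in striatum, and Nos1 (-0.72) and Npy (-0.42) lie farthest from 0 among the filled points in cerebellum. The falls of Nos1 and Npy were known before the 8 genes were listed.

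The tissues differed in the levels of all 8 genes. The WT samples here are the same as in the genotype comparisons, and depth and tissue cannot be told apart since the cerebellar libraries were larger. All 8 were called between WT striatum and WT cerebellum, where 64.2% of 15031 genes were. Of these, 6 were higher and 2 were lower in striatum. The cholinergic genes, below the filter in the cerebellar comparison, passed it here only through striatum. Their direction was thus fixed by the filter, and their calls are no independent result. Chat had 1620 counts in WT striatum and 8 in WT cerebellum, a CPM ratio of 498 (Poisson 95% interval 253 to 1154, counting error only). Slc5a7 had 3189 and 28 counts in WT striatum and WT cerebellum, a ratio of 280 (194 to 422). Slc18a3 had 552 counts in WT striatum and 0 in WT cerebellum, at least 453-fold higher against a floor of 3 counts over the group. Lhx8 had 383 counts in WT striatum and 1 in WT cerebellum, a ratio of 942 (169 to 37220).

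Sst was higher in striatum by 5.18 on the log2 scale (6.12 without cerebellar WT replicate 2), and Npy by 2.16 (SE 0.279). Nos1 and Pvalb were lower in striatum, with log2 fold changes of striatum over cerebellum of -0.69 (SE 0.110, edgeR adjusted p = 0.000395) for Nos1 and -5.68 (SE 0.245) for Pvalb.

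Per kilobase of exon, the order in cKO striatum was Sst (269 ± 18.9 RPKM), Npy (79.3 ± 17.0), Pvalb (14.6 ± 6.96), Slc5a7 (13.8 ± 1.48), Chat (9.10 ± 0.800), Slc18a3 (6.45 ± 0.612), Lhx8 (5.48 ± 0.557) and Nos1 (4.83 ± 0.175), as mean RPKM ± SD over 3 libraries. In WT striatum it was Sst (180 ± 50.1 RPKM), Npy (79.0 ± 33.1), Slc5a7 (15.6 ± 1.90), Pvalb (9.83 ± 4.20), Chat (9.51 ± 0.326), Slc18a3 (6.32 ± 0.441), Nos1 (5.20 ± 0.768) and Lhx8 (4.17 ± 0.0539). Pvalb overlapped with its neighbours Slc5a7 in both genotypes and Chat in WT, and Slc18a3 overlapped with Lhx8 in cKO and with Nos1 in WT. In cKO, Lhx8 also overlapped with Nos1. In cKO cerebellum the order of the measured genes was Pvalb (533 ± 20.9 RPKM), Npy (13.2 ± 0.971), Nos1 (5.11 ± 0.593) and Sst (2.19 ± 0.409), with no overlap between neighbours. In WT cerebellum it was Pvalb (508 ± 11.1 RPKM), Npy (17.8 ± 2.68), Nos1 (8.49 ± 0.631) and Sst (5.11 ± 5.01), where Nos1 and Sst overlapped. The cholinergic genes were at or under 0.0764 RPKM in every cerebellar library.

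The genes most like each member over all 14 libraries were found by Pearson's r of log2 CPM among 14056 genes with a mean of at least 1 CPM. The libraries form 2 tissue clusters, so a high r mainly repeats the contrast of the tissues. Cholinergic genes were most like genes that were high in striatum, with Kcnip2, Camk2n1 and Syt16 for Chat (r = 0.997 each), Kcnf1, Fam105a and Pde2a for Slc18a3, Drd1a, Srr and Foxp1 for Slc5a7, and Syt16 and Lmo3 for Lhx8. The peptide genes were most like Nrgn, 2900052N01Rik and Basp1 for Sst and Mapk3, Hn1 and Nub1 for Npy (r = 0.992 for Mapk3). Pvalb was most like Rnf182, Steap2 and Gm19461. Nos1 was the least tied to the tissue contrast, and the genes most like it were Pgm2l1 (r = 0.909), Rbfox2 (0.904) and Pkd1 (0.891). With Pgm2l1 its r was 0.885 over the 6 striatal and 0.961 over the 8 cerebellar libraries.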

How the data were processed

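For each of the 14 samples the authors deposited raw counts of reads per gene, with 0 rows for unassigned reads. The submitters' processing notes name HTSeq 0.6.1p1, STAR, DESeq2, cutadapt 1.13 and the build mm10. The annotation, strand setting and role of each tool are not stated there. The 8 genes and all gene lists were chosen with earlier results of these data known, including the falls of Nos1 and Npy. Counts were TMM-normalised and filtered with filterByExpr (minimum count 10, minimum total 15), and cKO was compared with WT in each tissue by the robust quasi-likelihood test of edgeR 4.0.16 (R 4.3.3), with Benjamini-Hochberg adjustment over all genes tested and calls at an adjusted p under 0.05. The same test gave the genotype by tissue difference in all 14 samples and the contrast of the WT tissues. Exact permutation tests used CPM. RPKM is CPM per kilobase of the union of GENCODE vM21 exons. The text names all 8 genes, Thap1, up to 4 called genes per list and tissue, and the 3 genes most like each member; genes given for libraries that stand apart were added after their values were seen. A few genes that fall under this rule, and 1 list in cerebellum, are not reported here. The lists were 8 of pathways and 14 of cell type markers. DESeq2 1.42.0, limma 3.58.1 (voom with quality weights), other scaling, filters and models, and leaving out each library were alternatives. Among the models within each tissue was a term for sex, taken from the counts of Xist against Y-linked genes in each library. The models were run on simulated counts with 200 genes changed 2-fold, and the outcome is not reported here. Apart from these changes and library size, each gene had the same mean in all simulated libraries. No library was made to stand apart, so the run does not bear on such libraries. Intervals of counts cover counting error only.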

Additional observations from a re-analysis of the deposited data

Results flagged for a closer look

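Sst in cerebellar WT replicate 2 stood at 9.09 CPM, far from 2.20, 1.62 and 1.83 CPM in the other WT cerebellar libraries. Its gap to the nearest of them was 0.922 of the range of the group, above the critical value of Dixon's test at 95% for 4 libraries. Chance puts about 1 in 20 groups past this value, and 17 groups were looked at.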

How the results depend on the processing

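Of the 8 genes, 0 were called in striatum and 8 between the WT tissues with every setting run, and 2 were called in cerebellum except with all 14 samples in 1 model (1) or with 1 library left out (1 to 2). For the genotype by tissue difference 1 was called with DESeq2 and 1 with limma-voom, and 0 to 1 with 1 library left out. Nos1 in cerebellum was called in all 16 alternatives. Striatal fold changes near 0 changed sign. Npy was -0.00090 on the log2 scale with DESeq2's size factors, -0.00092 with DESeq2 and -0.28 with limma-voom, and -0.30 to 0.20 with 1 library left out. Slc18a3 ran from -0.033 to 0.10 and Nos1 from -0.20 to 0.019 with 1 library left out. The number of all genes called in striatum was 54, against 153 with DESeq2, 186 with limma-voom, 376 in the model of 14 samples, 87 at an adjusted p under 0.1 and 3 to 122 with 1 library left out. In cerebellum it was 1121, against 251 in that model, 1773 at the looser threshold and 739 to 1165 with 1 library left out. For the genotype by tissue difference it was 60, against 232 with DESeq2, 102 with limma-voom and 17 to 193 with 1 library left out. The cause of these shifts was not tested. The striatal libraries were fewer and shallower, and the cholinergic genes were too low to test in cerebellum.

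With the replicate number as a block the members called were 0 in striatum, 2 in cerebellum and 0 for the difference, and the genes called were 15, 1246 and 13. Libraries of the same number correlated in their deviations by 0.133, 0.0896 and 0.0574 in striatum and 0.340, 0.163, 0.0569 and 0.205 in cerebellum. These were not all over 0.1 in either tissue, so the numbers were not taken as pairs. Every striatal library, and not every cerebellar one, correlated best with its own number, which is a hint from the data and not the design. Among the named striatal genes, Cldn11 was not called under the block (-0.91, edgeR adjusted p = 0.133).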
